A study of Mus musculus with 8 samples.

Results

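The GATA factors and their FOG cofactors are 8 genes, Gata1 to Gata6 with Zfpm1 and Zfpm2, found by gene symbol among the 54418 Ensembl genes of the deposited tables; all 8 were present. They were measured by RNA sequencing of melanocyte stem cells, from which the hair follicle draws new pigment cells. The cells came from mouse skin of the back, taken on postnatal day 21 and sorted. There were 4 Bmi1-deleted libraries, from Bmi1fl/fl mice with Tyrosinase-Cre, Dct-rtTA and TRE-H2B-GFP, and 4 control libraries, from Bmi1fl/fl mice with Dct-rtTA and TRE-H2B-GFP but no Cre. All mice were of a mixed C57Bl-6;129Sv background and ate doxycycline pellets, which switch on the histone-GFP reporter through Dct, a gene of melanin synthesis. The Cre is driven through the promoter of the pigment enzyme gene Tyrosinase, so deletion is limited to cells that have used it. The sort took live GFP-positive cells without autofluorescence.

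GATA factors are zinc finger transcription factors that bind the DNA letters GATA. GATA1, GATA2 and GATA3 are best known from blood cells, and GATA4, GATA5 and GATA6 from heart, gut and other organs of mesoderm and endoderm. FOG1 and FOG2, encoded by Zfpm1 and Zfpm2, do not bind these sites themselves but dock on a GATA factor and bring in corepressors such as CtBP and the NuRD complex. In skin, GATA3 is known for the inner root sheath of the hair follicle and for T cells, GATA2 for mast cells and endothelium, and GATA6 for the upper follicle and sebaceous duct. Developmental regulators of this kind are common targets of Polycomb repression, the process in which BMI1 acts.

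The comparison asked how loss of Bmi1 changed the RNA of these cells. The genes were selected on the names of the family, and the family was chosen by its levels and fold changes in this same comparison of Bmi1-deleted with control libraries. Its values in that comparison are therefore a description, and an adjusted p says only where a gene stood in the fit across all genes.

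The sequences around the start of the gene are shown for Gata2, whose level differed most between the groups, and for Gata1, which had no count in any library. Each runs from 250 bases before to 50 bases after a RefSeq start in build GRCm38.p6, the build also called mm10, and capitals mark the dinucleotide CG. The first Gata2 sequence, chr6:88193641-88193940 on the plus strand, belongs to the distal start, the second, chr6:88198414-88198713, to a proximal start 4773 bases downstream, and the Gata1 sequence is chrX:7967861-7968160 on the minus strand. The RefSeq start of Gata1 lies 10161 bases inside the gene as GENCODE draws it, and the window at the outer GENCODE start is not shown.
Gata2 distal: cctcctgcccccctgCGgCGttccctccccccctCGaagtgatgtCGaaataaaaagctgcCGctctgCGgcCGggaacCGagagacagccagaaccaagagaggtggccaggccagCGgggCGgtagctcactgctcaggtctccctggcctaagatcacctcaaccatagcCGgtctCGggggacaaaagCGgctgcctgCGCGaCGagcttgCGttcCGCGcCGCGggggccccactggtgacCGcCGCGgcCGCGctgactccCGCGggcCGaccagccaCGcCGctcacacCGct
Gata2 proximal: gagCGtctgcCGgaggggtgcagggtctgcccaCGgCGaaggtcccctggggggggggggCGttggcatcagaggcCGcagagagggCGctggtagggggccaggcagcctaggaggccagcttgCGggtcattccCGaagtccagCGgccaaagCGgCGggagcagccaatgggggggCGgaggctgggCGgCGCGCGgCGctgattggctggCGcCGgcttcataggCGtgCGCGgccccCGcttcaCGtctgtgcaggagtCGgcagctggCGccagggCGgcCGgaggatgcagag
Gata1: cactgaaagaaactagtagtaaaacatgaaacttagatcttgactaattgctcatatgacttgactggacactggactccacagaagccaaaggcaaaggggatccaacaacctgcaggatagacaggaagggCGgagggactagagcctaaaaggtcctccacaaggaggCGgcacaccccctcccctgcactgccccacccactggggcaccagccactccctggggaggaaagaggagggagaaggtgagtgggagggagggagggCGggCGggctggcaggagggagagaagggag

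The windows at the distal and proximal Gata2 starts held 32 and 29 CG, more than 90.5% and 87.1% of the 32851 mouse promoter windows of the same length, whose median was 7. Gata1 had 4 CG, more than 31.4% of those windows. The windows of Gata3 (22 CG), Gata5 (26 CG) and Zfpm1 (37 CG) were also rich in CG, at or above the 76.9% mark. Like that of Gata1, the Gata3 window, chr2:9878551-9878850, lies inside the gene as GENCODE draws it, 9857078 to 9890034. The outer GENCODE start of Gata3 was not examined. Gata4 and Zfpm2 had no entry in the table, and the window of Gata6 is not shown. On either strand, the letters GATAA occurred in none of these 6 windows and in 25.41% of all windows. TATAAA, the letters of a TATA box, also occurred in none of them and in 13.62% of all. GATAA was the only form of a GATA site searched, and the Gata1 window above does hold the letters GATAG. The absence of GATAA therefore does not show that these windows lack a GATA site.

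The libraries held 8882656 to 10368174 counts each. Bmi1 had 627, 713, 626 and 607 counts in Bmi1-deleted libraries 1 to 4, against 796, 743, 705 and 859 in control libraries 1 to 4. That is 69.6 ± 0.880 CPM in Bmi1-deleted libraries and 83.4 ± 10.0 CPM in control libraries (SD, n = 4), and Bmi1 was not called (log2 change −0.26, edgeR adjusted p = 0.607). Gene-level counts do not separate reads of the deleted part of Bmi1 from the rest, so they check the deletion only weakly. The cell cycle inhibitor gene Cdkn2a, a classic target of Bmi1 repression, had 85, 50, 38 and 46 counts in Bmi1-deleted libraries and 0 in each control library. All 10 melanocyte markers were counted in every library, with a summed level of 4910 to 10389 CPM in Bmi1-deleted libraries and 8716 to 14686 CPM in control libraries (CPM, counts scaled to library size with TMM factors). The labels do not tie replicates to separate animals, so every p measures only the spread between these samples, which may be technical. Across all genes edgeR's quasi-likelihood test called 15 of 16011 genes at an adjusted p under 0.05, which is 0.0937%, 14 of them higher and 1 lower in Bmi1-deleted libraries. Scaled by library totals alone, the split was 14 higher and 3 lower.

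Of the 8 genes, Gata2 stood higher in every Bmi1-deleted library than in any control library, and no other member had groups that did not overlap. Only 4 members, Gata2, Gata3, Zfpm1 and Zfpm2, had enough counts to be tested. By edgeR 0 of these 4 were called, against 0.0937% of all genes. At an unadjusted p under 0.05 there were 2, Gata2 and Zfpm1, against 8.27% of all genes. DESeq2 called 1, Gata2, against 0.766% of the genes it tested, and limma on the deposited log2 TPM called 0, against 0.025%. With the replicate number as a block edgeR called 1 of the 4, again Gata2, against 2.41% of all genes.

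Gata2 (ENSMUSG00000015053, mm10 chromosome 6, 88193891 to 88207032, plus strand) encodes a factor that maintains blood stem cells and is used by mast cells and endothelium. It had 156, 92, 81 and 95 counts in Bmi1-deleted libraries 1 to 4, against 39, 18, 24 and 7 in control libraries 1 to 4. These are 17.2, 9.14, 9.01 and 10.8 CPM in Bmi1-deleted libraries, against 4.14, 1.85, 2.57 and 0.792 CPM in control libraries. The groups did not overlap, as was true of 5.18% of all tested genes, and the lowest Bmi1-deleted library was 2.17 times the highest control library. Bmi1-deleted library 1 stood above its group, and the other 3 lay close together.

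Mean Gata2 was 11.5 ± 3.87 CPM in Bmi1-deleted libraries and 2.34 ± 1.41 CPM in control libraries (SD, n = 4), a ratio of 4.93. Within same-numbered pairs the Bmi1-deleted library was 4.15, 4.93, 3.51 and 13.6 times its control. Here and below, pairs are libraries with the same replicate number, and no label states that they belong together. The fitted log2 change was 2.29 with a standard error of 0.47, and Gata2 ranked 45 of the 16011 genes by p. It did not pass the test over all genes (edgeR adjusted p = 0.0994), whereas with the replicate block it did (log2 change 2.41, SE 0.43, adjusted p = 0.0053). DESeq2 also called it (log2 change 2.30, adjusted p = 0.000798). Leaving out each library in turn gave log2 changes from 2.01 to 2.72, and the gene passed in 1 of those 8 fits, the fit without control library 1 (edgeR adjusted p = 0.047, against up to 0.377 in the others). With the block it passed when pair 1, 3 or 4 was left out but not without pair 2 (edgeR adjusted p = 0.0549).

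**Figure D1:**
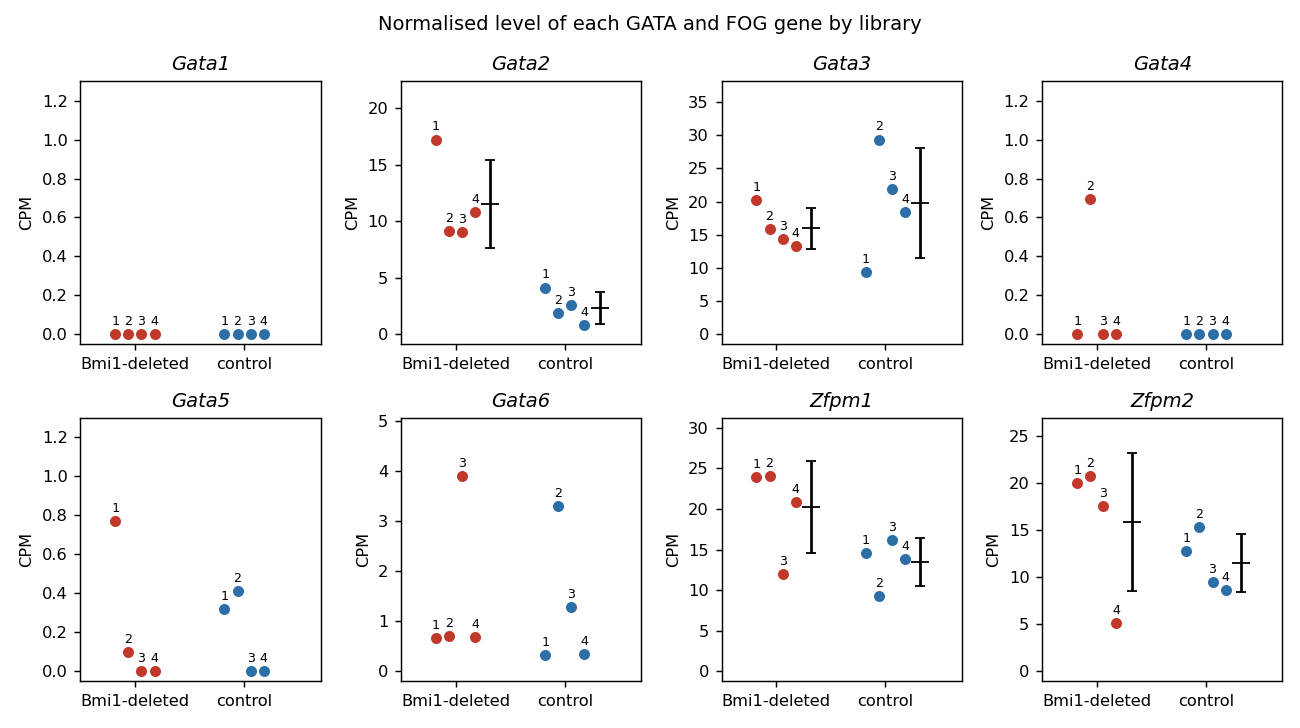
Normalised level (CPM, linear axis) of each of the 8 genes in Bmi1-deleted and control libraries, with points numbered by replicate and, for the 4 tested genes, the mean and SD of 4 libraries as black bars. The Gata2 points of the Bmi1-deleted libraries, 9.01 to 17.2 CPM, all lie above those of the control libraries, 0.792 to 4.14 CPM, while the groups of the other genes overlap or are at 0.

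Gata3 (ENSMUSG00000015619, chromosome 2, 9857078 to 9890034, minus strand), the factor of T cells and of the inner root sheath, was the member with the most counts in control cells. It had 184, 160, 129 and 118 counts in Bmi1-deleted libraries, against 88, 285, 205 and 163 in control libraries. Its level was 16.0 ± 3.06 CPM in Bmi1-deleted libraries and 19.8 ± 8.30 CPM in control libraries (SD, n = 4; log2 change −0.31, SE 0.30, edgeR adjusted p = 0.88). The control libraries spread more widely, and held both the lowest library of all, control 1 at 9.35 CPM, and the highest, control 2 at 29.4 CPM. The Bmi1-deleted library was above its control in pair 1 and below it in the other 3 pairs. Without control library 2 the log2 change was −0.05.

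Gata1 (chromosome X, 7959260 to 7978071), the master factor of red cells and platelets, had 0 counts in all 8 libraries. A count of 0 allows up to 3 counts, 0.298 to 0.34 CPM per library, a limit that covers counting error only. Reads include PCR copies, so these limits are not numbers of molecules.

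Gata4 (chromosome 14, 63198922 to 63271692), a factor of the heart and gonads, had 7 counts in Bmi1-deleted library 2 and 0 in the other 7 libraries. Gata5 (chromosome 2, 180325133 to 180334699), another factor of heart and gut, had 7, 1, 0 and 0 counts in Bmi1-deleted libraries, against 3, 4, 0 and 0 in control libraries. Gata5os, an antisense gene that overlaps it by 1843 bases, had more counts than Gata5 in every library, 25, 8, 5 and 23 in Bmi1-deleted libraries, against 19, 7, 18 and 6 in control libraries. The sources used here do not say whether the counting used strand, so it is not known which gene was given the reads of the shared 1843 bases. Gata6 (chromosome 18, 11052064 to 11085635), the factor of the sebaceous duct, had 6, 7, 35 and 6 counts in Bmi1-deleted libraries, against 3, 32, 12 and 3 in control libraries. Its level was highest in 1 library of each group, Bmi1-deleted 3 at 3.89 CPM and control 2 at 3.30 CPM, and the groups overlapped. At these depths no difference between the groups was detectable for Gata1, Gata4, Gata5 or Gata6, none of which passed the count filter.

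The FOG genes were both expressed. Zfpm1 (ENSMUSG00000049577, chromosome 8, 122282141 to 122337251, plus strand), which encodes FOG1, the partner of GATA1 in red cells and platelets, had 217, 242, 108 and 184 counts in Bmi1-deleted libraries, against 137, 90, 151 and 122 in control libraries. Its level was 20.2 ± 5.66 CPM in Bmi1-deleted libraries and 13.4 ± 2.95 CPM in control libraries (SD, n = 4; log2 change 0.59, SE 0.27, edgeR adjusted p = 0.585, 0.424 with the block). Bmi1-deleted library 3 lay among the control libraries, which ran from 9.27 to 16.2 CPM, and the other 3, at 20.9 to 24.0 CPM, lay above all of them. Replicates 1 and 2 alone gave a log2 change of 1.01 and replicates 3 and 4 alone 0.11.

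Zfpm2 (ENSMUSG00000022306, chromosome 15, 40655035 to 41104592, plus strand), which encodes FOG2, the partner of GATA4 in the heart, had 182, 209, 158 and 45 counts in Bmi1-deleted libraries, against 120, 149, 89 and 76 in control libraries. Its level was 15.9 ± 7.31 CPM in Bmi1-deleted libraries and 11.6 ± 3.09 CPM in control libraries (SD, n = 4; log2 change 0.46, SE 0.38, edgeR adjusted p = 0.843). Bmi1-deleted library 4 was the lowest of all 8 libraries, at 5.10 CPM, and the other 3 Bmi1-deleted libraries, at 17.6 to 20.8 CPM, were the highest. Summed fibroblast markers were also lowest in library 4 among the Bmi1-deleted libraries, and with their score as a covariate the log2 change of Zfpm2 was −0.47 (edgeR adjusted p = 0.695).

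**Figure D2:**
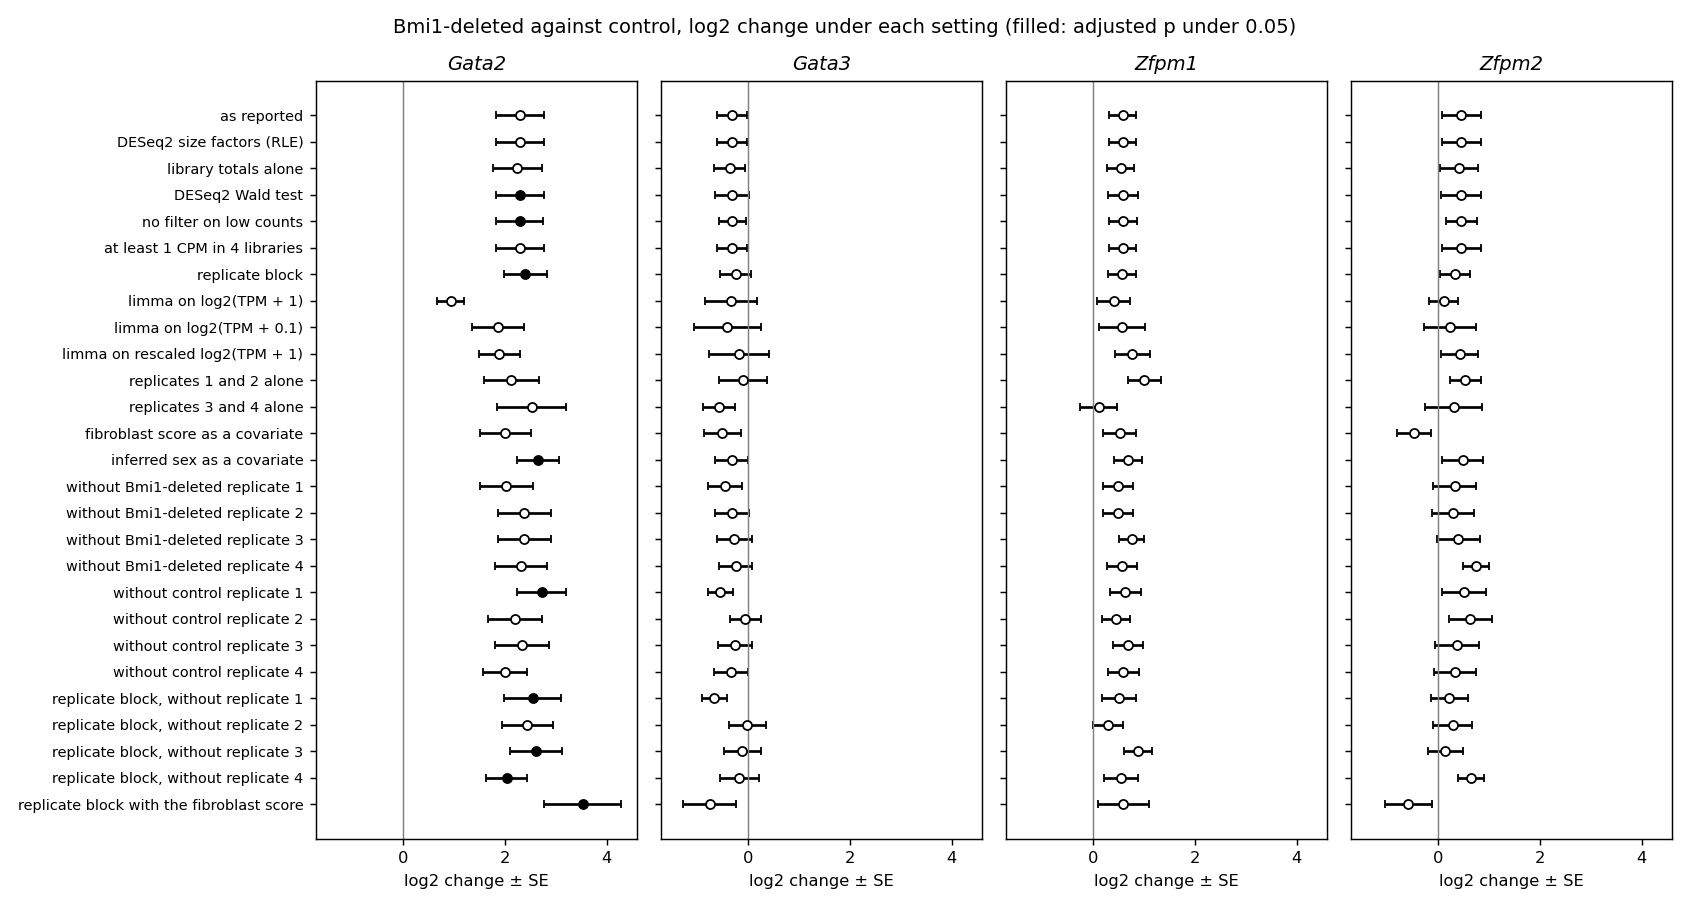
Log2 change of the 4 tested members, Bmi1-deleted against control, with its standard error, as reported and under 26 other settings down the page; filled points have an adjusted p under 0.05. Gata2 lies above 0 under every setting, from 0.94 to 3.53, and is filled under 9 of them, whereas Gata3, Zfpm1 and Zfpm2 are filled under none and Zfpm2 falls below 0 where the fibroblast score is a covariate.

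Levels of different genes were compared per transcript length, in TPM rescaled to 1e+06 after removing Gm23935 and CT010467.1. Gm23935 alone took 73.75% to 85.56% of the deposited TPM. On this scale the Bmi1-deleted libraries ran from Zfpm1 (19.5 ± 8.72) through Gata3 (16.7 ± 15.1), Gata2 (10.7 ± 4.66) and Zfpm2 (7.32 ± 2.32) to Gata6 (2.07 ± 1.25; SD, n = 4). The control libraries ran from Gata3 (19.3 ± 18.4) through Zfpm1 (10.6 ± 3.21), Zfpm2 (5.24 ± 2.18) and Gata2 (2.02 ± 0.892) to Gata6 (1.72 ± 2.25). Gata4 and Gata5 averaged 0.125 and 0.118 rescaled TPM in Bmi1-deleted libraries, against 0 and 0.0987 in control libraries. Gata3 and Zfpm1, neighbours in both orders, did not differ beyond their spread, nor did Gata2 and either of its neighbours, Gata3 and Zfpm2, in Bmi1-deleted libraries or Gata2 and Gata6 in control libraries.

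Gata2 stood above Zfpm2 in 3 of 4 Bmi1-deleted libraries and in 0 of 4 control libraries, and above Gata3 in 2 and 0. Zfpm1 stood above Zfpm2 in all 4 libraries of each group. The Gata2 groups did not overlap in rescaled TPM either, at 14.4, 5.08, 14.6 and 8.71 in Bmi1-deleted libraries and 3.32, 1.54, 1.38 and 1.83 in control libraries. The ratio of rescaled TPM to CPM, which moves with the transcripts that Salmon assigned the reads to, differed between libraries by up to 4.32-fold for Gata2, 5.61-fold for Gata3, 5.41-fold for Zfpm1, 2.35-fold for Zfpm2 and 10.1-fold for Gata6. The highest Gata3 values, 39.1 in Bmi1-deleted library 4 and 46.9 in control library 2, went with the 2 highest ratios for this gene, 2.92 and 1.597.

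**Figure D3:**
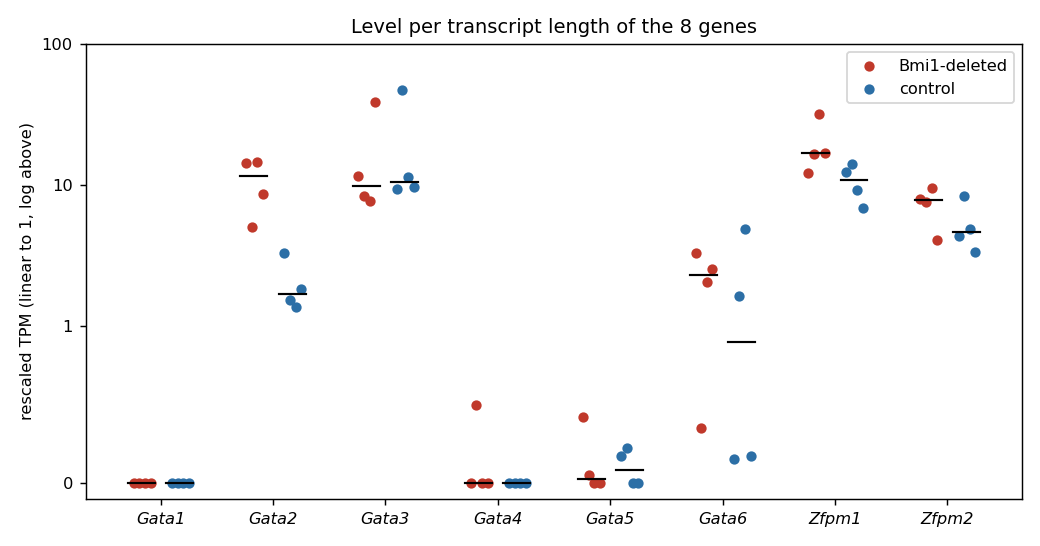
Level per transcript length (rescaled TPM, linear to 1 and logarithmic above) of the 8 genes in each library, with the median of 4 libraries as a black line. Gata2 is the gene whose Bmi1-deleted points, 5.08 to 14.6, are apart from its control points, 1.38 to 3.32; Gata1 is at 0 throughout.

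Markers of other cell types that use GATA factors were set beside Gata2, since a change in a bulk sample does not tell more cells of a type from more RNA per cell. Endothelial genes, of which 10 of 10 were counted, summed to 223, 201, 165 and 169 CPM in Bmi1-deleted libraries, against 167, 180, 133 and 155 CPM in control libraries. By edgeR 0 of 8 tested endothelial genes were called, and 2 had an unadjusted p under 0.05, against 8.27% of all genes. DESeq2, limma and the blocked fit called 0. The median log2 change was 0.71, against 0.01 over all genes. Eng, a TGF-beta coreceptor and the most abundant gene of the list, made up most of this sum, at 126 ± 12.4 CPM in Bmi1-deleted libraries and 122 ± 18.2 CPM in control libraries (SD, n = 4; log2 change 0.04). Without Eng the other 9 genes summed to 114, 62.4, 33.7 and 45.4 CPM in Bmi1-deleted libraries, against 41.2, 46.5, 37.6 and 21.0 CPM in control libraries, higher in the Bmi1-deleted library of 3 of 4 pairs. Pecam1, an adhesion molecule of endothelium, stood at 20.5 ± 10.1 CPM in Bmi1-deleted libraries and 9.94 ± 3.81 CPM in control libraries (SD, n = 4). Of the 8 tested genes 7 had a log2 change above 0. Kdr, a VEGF receptor named after its values were seen, was the exception, with a log2 change of −0.27. The sum of all 10 genes was higher in the Bmi1-deleted library of all 4 pairs, and the part of endothelial RNA in the Gata2 difference was not tested.

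Mast cell genes summed to 28.0, 7.65, 4.67 and 1.02 CPM in Bmi1-deleted libraries, against 2.98, 15.4, 15.9 and 0.68 CPM in control libraries. The sum was higher in the Bmi1-deleted library of 2 of 4 pairs. The most abundant of the 9 genes were Hdc, the histamine-forming enzyme, with 246 counts over 7 libraries, the protease gene Mcpt4 with 180 over 6, and Cpa3, another protease gene, with 132 over 6. The tryptase gene Tpsab1 was at 0 in all libraries, and Ms4a2 and Fcer1a, subunits of the IgE receptor, had 5 and 3 counts in all; these 3 are named after their values were seen. Of 3 tested mast cell genes 0 were called by edgeR, 0 had an unadjusted p under 0.05, and DESeq2, limma and the blocked fit called 0. The part of mast cell RNA in the Gata2 difference was not tested.

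Fibroblast markers, of which 14 of 14 were counted, summed to 16900, 13736, 9667 and 7421 CPM in Bmi1-deleted libraries, against 7665, 6285, 5106 and 4584 CPM in control libraries. Of 12 tested, edgeR called 0, and 7 had an unadjusted p under 0.05, against 8.27% of all genes. DESeq2 called 3, against 0.766% of the genes it tested, and limma 0. The blocked fit called 5, all higher, against 2.41% of all genes. The median log2 change was 0.96, and 11 of the 12 were above 0. Fbln1, named after its values were seen, was lower (log2 change −0.74, edgeR adjusted p = 0.405) and was among the 7. Col3a1, a collagen chain, stood at 5349 ± 1397 CPM in Bmi1-deleted libraries and 2748 ± 668 CPM in control libraries (SD, n = 4). The fibroblast sum was higher in the Bmi1-deleted library of all 4 pairs, but the collagen genes Col1a1, Col1a2 and Col3a1 made up most of it. The fibroblast score, the mean log2 CPM of the 12 tested markers, weighs them equally. It was 6.875, 6.437, 5.806 and 4.833 in Bmi1-deleted libraries, against 5.455, 5.437, 4.733 and 4.916 in control libraries. By this score the Bmi1-deleted library of pair 4 was slightly lower than its control. With the fibroblast score as a covariate the log2 change of Gata2 was 2.01 (edgeR adjusted p = 0.167), and with the replicate block as well 3.53 (SE 0.75, adjusted p = 0.0479). The fit with both was chosen after the data were seen, and estimated many terms from only 8 libraries.

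Most melanocyte markers fell in the fit with the replicate block. Of 10 tested, edgeR called 0, and 7 had an unadjusted p under 0.05, against 8.27% of all genes. DESeq2 called 2, against 0.766% of the genes it tested, and limma 0. The blocked fit called 8, all lower, against 2.41% of all genes. The median log2 change was −0.71. Sox10, named after its values were seen, was the 1 marker above 0 (log2 change 0.16, edgeR adjusted p = 0.818). Kit, the growth factor receptor of melanocytes and also of mast cells, stood at 935 ± 340 CPM in Bmi1-deleted libraries and 1414 ± 256 CPM in control libraries (SD, n = 4; log2 change −0.60, edgeR adjusted p = 0.561, 0.00595 with the block). The part of melanocyte content in the Gata2 difference was not tested.

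**Figure D4:**
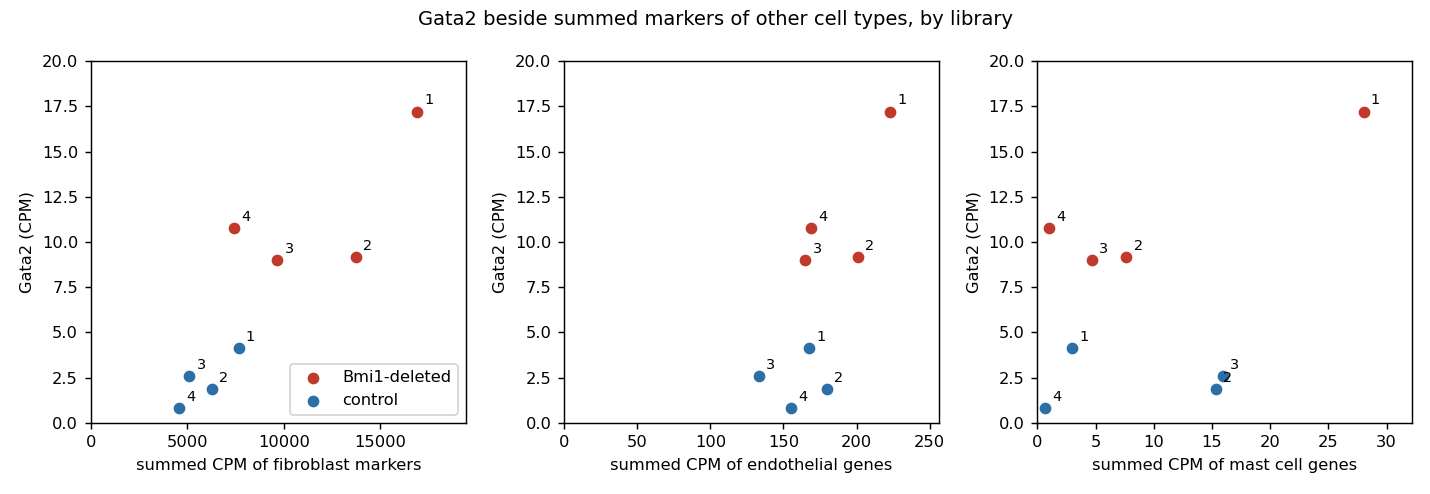
Gata2 (CPM) against the summed CPM of fibroblast markers, endothelial genes and mast cell genes in each library, with points numbered by replicate. Bmi1-deleted library 1 is highest on every axis, and within same-numbered pairs the Bmi1-deleted library has the higher sum in 4 of 4 pairs for fibroblast and endothelial genes and in 2 of 4 for mast cell genes.

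Most partners of GATA and FOG proteins had enough counts to be tested, and none of those passed. Of 8 tested genes of other GATA-type zinc finger proteins, 12 tested members of the LMO2, LDB1 and TAL1 group, and 11 tested CtBP and NuRD subunits, edgeR called 0, and so did DESeq2, limma and the blocked fit; 0, 1 and 0 of them had an unadjusted p under 0.05. Their median log2 changes were −0.11, −0.05 and 0.02, against 0.01 over all genes. Chd4, the helicase of NuRD, stood at 1124 ± 56.9 CPM in Bmi1-deleted libraries and 1031 ± 123 CPM in control libraries. Crebbp, an acetyltransferase that GATA factors use as a coactivator, stood at 474 ± 63.5 CPM in Bmi1-deleted libraries and 475 ± 71.2 CPM in control libraries. With the fibroblast score as a covariate edgeR called 1 partner, Runx1, a factor of blood and hair follicle stem cells named after its values were seen (log2 change 0.82, adjusted p = 0.0316, 0.623 without the covariate). The blood partners Tal1 and Lmo2, also named after their values were seen, had at most 20 counts in any library. Tal1 had 17, 5, 2 and 16 counts in Bmi1-deleted libraries, against 17, 20, 8 and 0 in control libraries. Lmo2 had 7, 1, 11 and 2 counts in Bmi1-deleted libraries, against 14, 10, 5 and 10 in control libraries. Zglp1, a germ cell protein with GATA-type fingers that was too low to test and is named after its values were seen, had 0, 14, 17 and 17 counts in Bmi1-deleted libraries, against 2, 0, 0 and 0 in control libraries. Lyl1 and Spi1 were also too low to test.

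Genes that GATA factors are known to switch on in other tissues were mostly too low to test. Of 17 red cell and platelet genes 3 were tested, of 10 T cell and innate lymphoid genes 4, of 8 inner root sheath genes 3, of 13 heart and mesoderm genes 3, of 10 endoderm genes 3, of 8 sympathetic neuron genes 1, and of 9 sebaceous gland genes 8. The medians of these 7 lists were 1.06, 0.17, 0.21, 0.18, 0.52, −0.27 and 0.16 on the log2 scale, in that order, most of them over 4 genes or fewer. Together with the partner, mast cell and endothelial lists these 12 lists named 128 genes, of which 67 were tested. By edgeR 0 of the 67 were called, and 7 or 10.4% had an unadjusted p under 0.05, close to the 8.27% of all genes. DESeq2 called 2, against 0.766% of the genes it tested, and limma 0. With the replicate block 4 were called, 5.97% of the 67 against 2.41% of all genes, and all 4 were higher.

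Those 4 were Tchh, Col4a1, Lamb1 and Krt79, the last named after its values were seen. Tchh, which encodes the inner root sheath protein trichohyalin, stood at 22.3 ± 7.97 CPM in Bmi1-deleted libraries and 8.92 ± 1.81 CPM in control libraries (SD, n = 4). Its blocked log2 change was 1.28 (edgeR adjusted p = 0.0123 with the block, 0.109 without). Cux1 and Msx2, the other tested members, had log2 changes of 0.21 and −0.16 and were not called by edgeR (adjusted p = 0.688 and 0.986). The keratins Krt25, Krt27, Krt28 and Krt73 were too low to test and averaged 0, 0.75, 4.25 and 0 counts in Bmi1-deleted libraries, against 1, 4, 9.75 and 5.25 in control libraries, while Krt71 averaged 5.75 in Bmi1-deleted libraries and 0 in control libraries. Col4a1 and Lamb1, which encode basement membrane proteins of parietal endoderm and of many other tissues, had blocked log2 changes of 0.65 and 0.53 (edgeR adjusted p = 0.00314 and 0.00616 with the block, 0.142 and 0.417 without). Krt79, a keratin of the sebaceous duct, had a blocked log2 change of 1.01 (edgeR adjusted p = 0.0489 with the block, 0.381 without). With the fibroblast score as a covariate and no block, Tchh was called (log2 change 1.68, edgeR adjusted p = 0.0175), and Col4a1, Lamb1 and Krt79 were not (adjusted p = 0.269, 0.665 and 0.583).

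**Figure D5:**
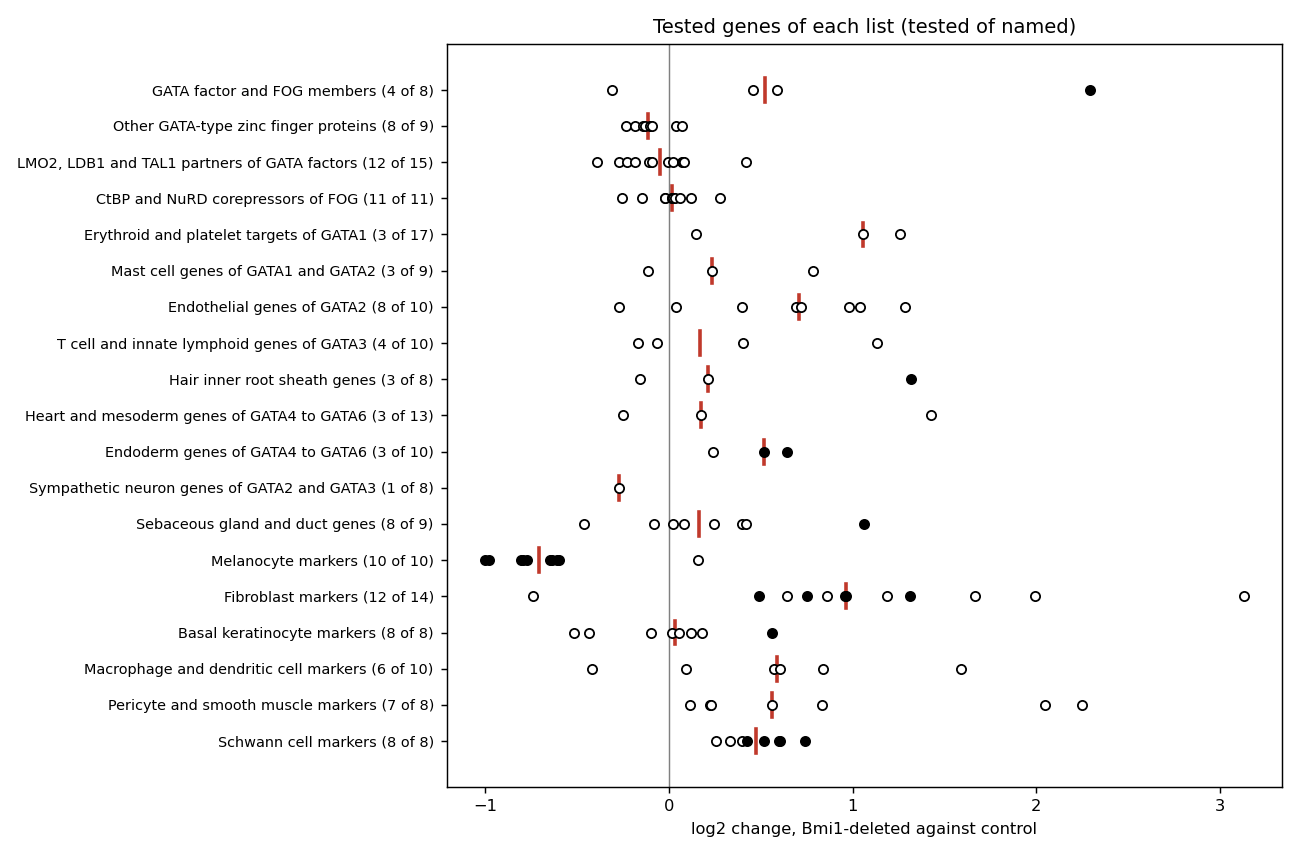
Log2 change, Bmi1-deleted against control, of each tested gene of 19 lists, with the number tested of those named in brackets and the median as a red line; filled points passed with the replicate block. Gata2 is the rightmost member of the family at 2.29, the partner lists have medians from −0.11 to 0.02, fibroblast markers lie mostly above 0 and melanocyte markers mostly below 0.

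Likeness to the family's 2 highest members, Gata3 and Zfpm1, was measured as the Pearson correlation of log2 CPM over the 8 libraries among 13018 genes. The genes most like Gata3 were Tll1 (r = 0.98), Slc25a33 (0.97) and Mapk1ip1l (0.94), and those most like Zfpm1 were Abt1 (0.94), Ptcd1 (0.92) and Arhgef18 (0.92). The genes most like Gata2, which was looked at after its values were seen, were Zc4h2 (0.98), Onecut2 (0.98) and Hspg2 (0.97). Onecut2, a homeobox factor, averaged 16.0 CPM in Bmi1-deleted libraries and 1.27 CPM in control libraries but was not called (log2 change 3.64, edgeR adjusted p = 0.116). Correlations this high are easily found among so many genes over 8 libraries that share the same groups and depth, so they are given as a description with no p.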

How the data were processed

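The deposited tables hold gene-level counts and log2 TPM for 8 libraries, made by the authors with Salmon 1.2.1 on mm10, per the submitters' processing notes. Counts were used as deposited, and the authors' log2 values were turned back to TPM. The annotation and strand setting behind them are not stated in those notes. Libraries were made from sorted cells with a stranded total RNA kit, per the labels' protocols, so counts include PCR copies. Gene symbols were matched for 54166 of 54418 IDs in GENCODE M21, and promoter windows came from RefSeq.

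edgeR 4.0.16 in R 4.3.3 filtered low genes (16011 left), scaled by TMM and tested Bmi1-deleted against control with its quasi-likelihood test and Benjamini-Hochberg adjustment at 0.05. DESeq2 1.42.0 and limma 3.58.1 (pseudocounts 1 and 0.1) were alternatives, as were other scalings and filters, subsets, covariates and a replicate block. The code was tested on simulated data. Same-numbered libraries deviated together, with correlations from 0.124 to 0.186 in the 4 pairs, so the numbers were taken to pair them. However, only 4 of 8 libraries correlated best with their own number, and no label gives a shared litter or day. Unlike-numbered libraries also deviated together within replicates 1 and 2 (0.217 and 0.148) and within replicates 3 and 4 (0.129 and 0.171). The 4 pairs can therefore not be told apart from a split of replicates 1 and 2 against 3 and 4.

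The members and lists were chosen with earlier results of these data known. Named genes were the 8 members, Bmi1, Cdkn2a, and each list's called genes and up to its 3 most abundant. To these were added the 3 genes most like each of the 2 most abundant members, and Gata5os, which overlaps Gata5. Others are said to be chosen after their values were seen. Gata3, Gata6, Zfpm1 and Zfpm2 also have annotated overlapping genes, which are not named here.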

Additional observations from a re-analysis of the deposited data

Results flagged for a closer look

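In 4 places 1 library of a group stood apart from the other 3 by Dixon's criterion for a group of 4, which sets the gap to the nearest library against the whole range. For normally spread values chance alone gives this in about 1 in 20 groups, and 56 were looked at. That rate does not hold for counts as low as those of Gata4, Gata5 and Gata6. A gene counted in 1 library of a group always meets the criterion. Gata4 was counted in Bmi1-deleted library 2 alone, at 0.696 CPM. Gata5 stood at 0.772 CPM in Bmi1-deleted library 1, and at 0.0994 CPM or less in the rest of its group. Gata6 stood at 3.89 CPM in Bmi1-deleted library 3, and at 0.696 CPM or less in the rest. Red cell and platelet genes summed to 93.8 CPM in Bmi1-deleted library 1, and to 32.8 CPM or less in the rest of its group, against 11.6 to 50.9 CPM in control libraries. That library also had the highest Gata2 level.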

How the results depend on the processing

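Against 14 genes called higher and 1 lower, the counts over all genes were 17 and 3 with RLE scaling, 14 and 3 with library totals alone, 106 and 52 by DESeq2, 259 and 121 with no filter, 273 and 113 with the replicate block, 3 and 1 by limma on log2(TPM + 1), 2 and 1 with a pseudocount of 0.1, 2 and 0 on rescaled TPM, 83 and 73 in replicates 1 and 2 alone, 11 and 6 in replicates 3 and 4 alone, and 23 and 6 with the fibroblast score. Leaving out 1 library gave 8 (without control 2) to 40 (without control 1) higher and 0 to 5 lower. Of the members, 1 was called higher, Gata2, by DESeq2, with no filter, with the replicate block and with an inferred sex covariate, the last chosen after seeing the data like the rescaled TPM, the block with a pair left out and the block with the fibroblast score. Leaving out 1 library gave 0 to 1 called. Gata2 was higher under all 26 alternatives (log2 change 0.94 to 3.53, adjusted p 0.000213 to 0.518) and passed in 9. The replicate block changed no other member's call. Gata3 kept a negative value (−0.75 to −0.01) and Zfpm1 a positive value (0.11 to 1.01), with 0 passing under any alternative. Zfpm2 turned to −0.47 with the fibroblast score and −0.58 with the score and the block; the cause was not tested. Cdkn2a did not pass in replicates 3 and 4 alone (adjusted p = 0.111). The deposited TPM moved the median of all genes by −0.14 (log2, pseudocount 1) and −0.21 (0.1). Counts of 0 to 35 limit what can be said of Gata1, Gata4, Gata5 and Gata6.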

Other observations

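Markers of 4 further cell types were measured in the same libraries. Of 8 tested Schwann cell genes, edgeR called 0, and 4 had an unadjusted p under 0.05, against 8.27% of all genes. DESeq2 called 3, against 0.766% of the genes it tested, and limma 0. The fit with the replicate block called 5, all higher, against 2.41% of all genes. The Schwann cell sum was 4948, 5571, 4875 and 4146 CPM in Bmi1-deleted libraries, against 4158, 3610, 2961 and 2357 CPM in control libraries.

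Of 8 basal keratinocyte genes, edgeR, DESeq2 and limma called 0, and 2 had an unadjusted p under 0.05, against 8.27% of all genes. The blocked fit called 1, against 2.41% of all genes. It was the integrin gene Itga6, at 1103 ± 220 CPM in Bmi1-deleted libraries and 745 ± 195 CPM in control libraries (edgeR adjusted p = 0.437, 0.0025 with the block). Of 6 tested macrophage and dendritic cell genes and 7 tested pericyte genes, edgeR, DESeq2, limma and the blocked fit called 0. At an unadjusted p under 0.05 there were 0 and 2, against 8.27% of all genes. The median log2 changes of the macrophage and pericyte lists were 0.59 and 0.56, against 0.04 for the keratinocyte genes and 0.01 over all genes.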
